A study of Homo sapiens with 4 samples.

Results

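Oxidative phosphorylation was examined through the genes for the protein subunits of its 5 complexes, in RNA-seq of human RPE1 cells with and without knockdown of TOP2B, the DNA topoisomerase that relaxes DNA by passing one duplex through another. Members were the protein-coding genes whose symbols begin with the prefixes of the subunit families (NDUFA, NDUFB, NDUFC, NDUFS, NDUFV, SDHA to SDHD, UQCR, COX4I to COX8, ATP5F, ATP5M and ATP5P) together with the 13 protein-coding genes of mitochondrial DNA, and assembly factors were left out. Of the 60725 genes in the table, 102 matched, and 2 of these, ATP5MF-PTCD1 and NDUFC2-KCTD14, join 2 neighbouring loci and had between 0 and 4 counts per library, so they were set apart. The remaining 100 members comprised 87 nuclear genes and 13 genes of mitochondrial DNA. A gene was tested when it had at least 10 counts in at least 2 libraries, which left 78 nuclear and 13 mitochondrial DNA members among 15356 genes tested.

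The study mapped contacts of the genome with the nuclear lamina after loss of topoisomerases, and its RNA-seq compared 2 control with 2 TOP2B knockdown libraries. All 4 came from hTERT-RPE1 cells, a telomerase-immortalised line of retinal pigment epithelial origin that here carried the SunTag system, so that both groups shared this 1 engineered line. According to the sample labels, the control cells received Silencer Select Negative Control No. 2, and the knockdown cells an ON-TARGETplus pool against TOP2B from another supplier, each at 10 nM in a pair of transfections 48 h apart with harvest 72 h after the later one, on day 5. The control siRNA and the TOP2B siRNAs differ in design as well as in target, so the loss of TOP2B and other effects of the siRNAs cannot be told apart here. Total counts per library lay between 20310259 and 23887013, and levels are given as CPM, the counts relative to the library's total, scaled by TMM, edgeR's normalization for library composition. TOP2B itself was at 154.9 and 143.5 CPM in the control libraries and at 15.3 and 13.3 CPM in the knockdown libraries. Of the markers fixed for the cell type, MITF (38.2 to 44.8 CPM), OTX2 (11.2 to 13.4 CPM), KRT8 (853.5 to 1347 CPM), KRT18 (266.3 to 424.4 CPM) and TERT (12.9 to 16.6 CPM) were present in every library. RPE65 and TYR, which mark mature pigment epithelium, had 0 counts, RLBP1 was at or below 0.050 CPM, and BEST1 and PMEL lay between 0.307 and 1.46 CPM. The leukocyte marker PTPRC did not exceed 0.307 CPM, the endothelial markers PECAM1 and CDH5 did not exceed 1.00 CPM, and HBA1 and HBB had 0 counts.

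Oxidative phosphorylation makes ATP on the inner mitochondrial membrane. Complexes I and II pass electrons from NADH and succinate to ubiquinone, complex III passes them on to cytochrome c, complex IV reduces oxygen, and the proton gradient built by complexes I, III and IV drives ATP synthase, complex V. Complex II is encoded by the nucleus alone, whereas the other complexes each combine nuclear subunits with subunits from mitochondrial DNA, which is transcribed from both strands into long RNAs that are cut into single messengers. Most mitochondrial messenger RNAs end in short poly(A) tails, and the libraries were made from polyadenylated RNA. For messengers with such a tail, a level here reflects polyadenylated transcript. Whether each messenger, MT-ND6 of complex I among them, carries a tail was not tested. In bulk RNA, fewer mitochondria per cell and less RNA per mitochondrion cannot be told apart.

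Several mitochondrial genes share bases with their neighbour, and examples are shown because a read from a shared stretch overlaps 2 genes. Whether such a read was counted for either gene was not tested. MT-ATP8 and MT-ATP6, subunits of ATP synthase, lie on 1 messenger and overlap by 46 bases. The whole of MT-ATP8 (chrM:8366-8572, plus strand, GRCh38) is given first, with the bases that it shares with MT-ATP6 in capitals. MT-ND4L and MT-ND4, subunits of complex I, overlap by 7 bases, shown in capitals with 30 bases on each side (chrM:10730-10796, plus strand).
MT-ATP8: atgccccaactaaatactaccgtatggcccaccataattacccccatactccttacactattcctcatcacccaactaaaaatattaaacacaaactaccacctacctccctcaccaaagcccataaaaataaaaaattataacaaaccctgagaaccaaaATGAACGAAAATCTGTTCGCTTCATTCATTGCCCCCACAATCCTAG
MT-ND4L/MT-ND4: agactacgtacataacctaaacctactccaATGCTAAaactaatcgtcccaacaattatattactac

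Messenger RNAs of mitochondrial DNA were lower in the TOP2B knockdown libraries than in the control libraries. The 13 genes together took 5.46% and 5.47% of all counts in the control libraries and 4.41% and 4.36% in the knockdown libraries. The group means were 5.47% ± 0.010 and 4.39% ± 0.033 (SD, n = 2 each), a difference of -1.08 percentage points that left 80.3% of the control share, and the gap exceeded the spread within each group, although 2 against 2 libraries are too few for an exact test to pass the threshold. All 13 fitted log2 fold changes were below 0, with a median of -0.32 and a range from -0.59 to -0.14. Over all genes tested the median was -0.0029, the middle part of the distribution (from the lower to the upper quartile) ran from -0.22 to 0.26, and 50.2% of genes fitted lower. Of the 13 genes 2, MT-ND3 and MT-ATP8, fell at an adjusted p below 0.05 (edgeR's quasi-likelihood test, Benjamini-Hochberg adjustment over all genes tested), where 4.18% of all genes were called lower and 6.66% higher. At an unadjusted p below 0.05 there were 5 of 13, beside 26.3% of all genes. In 12 of the 13 both knockdown libraries lay below both control libraries, and in none above, whereas 26.6% of all genes had both knockdown libraries below and 27.7% had both above.

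**Figure D1:**
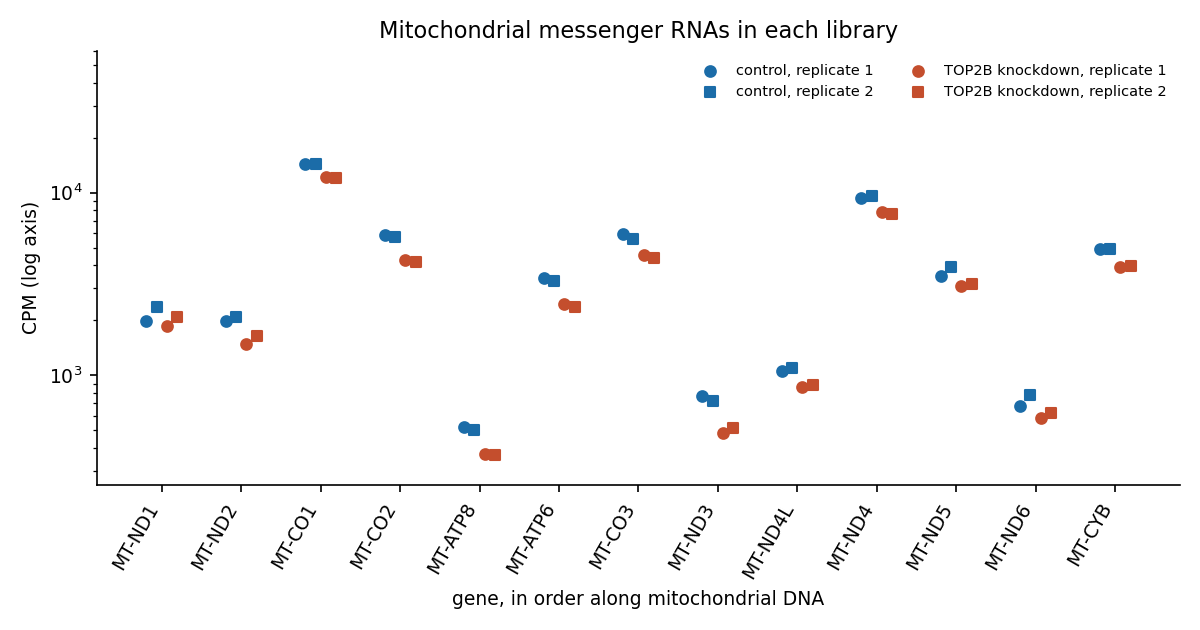
Level of the 13 protein-coding genes of mitochondrial DNA in each library, in CPM on a log axis, in the order of the genes along mitochondrial DNA. Each point is 1 library, blue for control and orange for TOP2B knockdown, and MT-ND1 is the 1 gene whose knockdown and control libraries overlap.

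**Figure D2:**
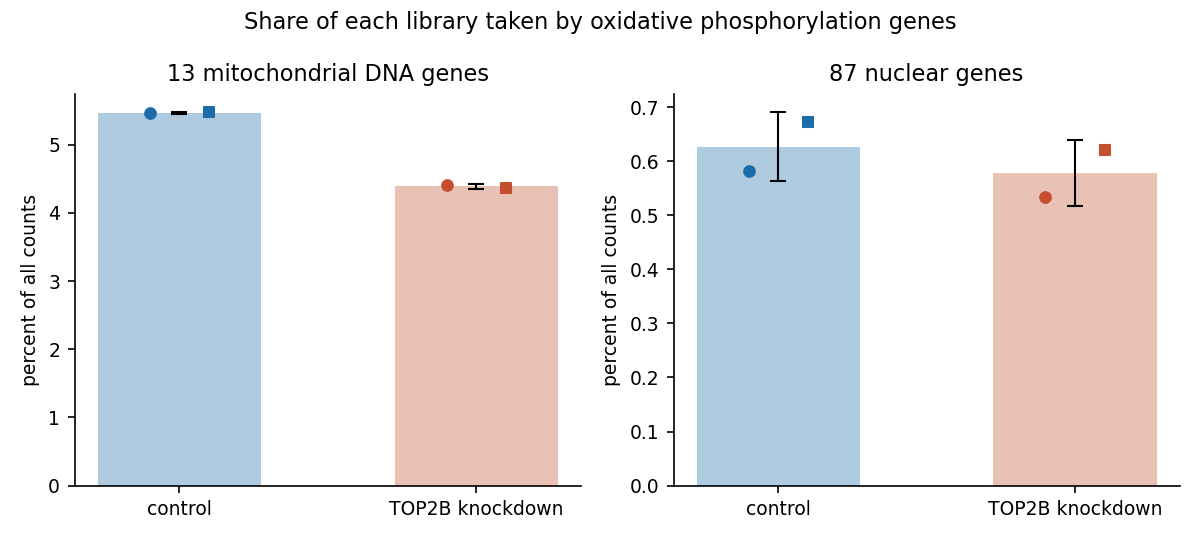
Percent of all counts taken by the 13 mitochondrial DNA genes (left) and by the 87 nuclear members (right), with bars for group means, error bars for the SD of 2 libraries and a point for each library. The mitochondrial shares fall from 5.46% and 5.47% to 4.41% and 4.36%, whereas the nuclear shares of 0.581% and 0.672% in control overlap those of 0.534% and 0.621% in knockdown.

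Both genes of ATP synthase in mitochondrial DNA stood near 72% of control. MT-ATP8, a small subunit of the membrane part, was at 519.6 and 500.3 CPM in control and at 368.2 and 363.5 CPM in knockdown cells. It fell by 0.48 on the log2 scale (SE 0.14, adjusted p = 0.0497) and so lay just inside the threshold. MT-ATP6, the subunit that forms the proton path together with the ring of c subunits, was at 3399 and 3288 CPM against 2451 and 2353 CPM, and both knockdown libraries lay below both controls. Its log2 fold change of -0.48 (SE 0.17, adjusted p = 0.103) did not pass the test. The pair differed in level but hardly in fold change, with 71.7% of the control mean for MT-ATP8 and 71.8% for MT-ATP6. How the counting treated reads in the 46 shared bases was not tested.

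The genes of complex I in mitochondrial DNA, which encode the subunits of its membrane arm, spread more widely. MT-ND3 (chrM:10059-10404, plus strand) was at 772.2 and 718.1 CPM in control and at 480.3 and 511.5 CPM in knockdown cells, 66.5% of control. This is the largest decrease among the 13 genes, and MT-ND3 fell by 0.59 on the log2 scale (SE 0.14, adjusted p = 0.0291). MT-ND2 was at 1977 and 2086 CPM against 1475 and 1630 CPM, with a log2 fold change of -0.39 (SE 0.16, adjusted p = 0.160). MT-ND4 was the most abundant of these messengers, at 9389 and 9564 CPM against 7838 and 7691 CPM, with a log2 fold change of -0.29 (SE 0.19, adjusted p = 0.384). Its overlapping partner MT-ND4L was at 1049 and 1090 CPM against 861.5 and 879.6 CPM, with a log2 fold change of -0.30 (SE 0.15, adjusted p = 0.238). The 2 genes thus kept 81.9% and 81.4% of their control means. MT-ND5 was at 3500 and 3915 CPM against 3071 and 3158 CPM, and its log2 fold change was -0.25 (SE 0.18, adjusted p = 0.406). MT-ND6 is the only protein-coding gene read from the other strand. It was at 675.3 and 783.1 CPM against 581.6 and 621.3 CPM, and its log2 fold change of -0.28 (SE 0.15, adjusted p = 0.277) lay among those of the other genes. How strand was handled in counting is not known, so reads from the opposite strand over MT-ND6 cannot be told apart from its own. MT-ND1 differed least, with 1988 and 2349 CPM in control and 1857 and 2089 CPM in knockdown cells, so that the groups overlapped, and a log2 fold change of -0.14 (SE 0.17, adjusted p = 0.670).

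MT-CYB, the cytochrome b of complex III, was at 4937 and 4929 CPM in control and at 3935 and 3991 CPM in knockdown cells, with a log2 fold change of -0.32 (SE 0.18, adjusted p = 0.294). The 3 cytochrome c oxidase genes of complex IV formed a graded series. MT-CO2, which carries the site that receives electrons from cytochrome c, was at 5899 and 5713 CPM against 4264 and 4184 CPM, with a log2 fold change of -0.46 (SE 0.18, adjusted p = 0.136). MT-CO3 was at 5952 and 5597 CPM against 4545 and 4405 CPM, with a log2 fold change of -0.37 (SE 0.18, adjusted p = 0.233). MT-CO1, the catalytic subunit and the most abundant of the 13 messengers, was at 14397 and 14403 CPM against 12222 and 12083 CPM, with a log2 fold change of -0.24 (SE 0.20, adjusted p = 0.490). For all 4 genes both knockdown libraries lay below both controls, at 72.7% to 84.4% of the control means. None of the 4 passed the test, and the differences between them were of the size of their standard errors.

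Levels between genes are comparable only per length. The length used was that of the annotation's canonical spliced transcript, which for mitochondrial DNA genes is the whole gene. Per kilobase of this length, control cells held 9339 CPM of MT-CO1, 8489 of MT-CO2, 7366 of MT-CO3 and 6877 of MT-ND4, the highest of the 13. Stretches of read length with an exact copy elsewhere in the genome were not corrected for. They made up 41.2% of MT-CO1, 35.7% of MT-ATP6 and 0.68% of MT-ND4, and their part in this order was not tested. MT-ND6 was the lowest with 1389 CPM per kilobase. The highest nuclear member, ATP5F1B, the catalytic beta subunit of ATP synthase, reached 449.5 CPM per kilobase, less than any of the mitochondrial messengers. The 3 genes with the lowest share of control (MT-ND3, MT-ATP8 and MT-ATP6) have lengths of 346, 207 and 681 bases. These are lengths of the annotated genes and not of transcripts, since MT-ATP8 and MT-ATP6 lie on 1 messenger. Across the 13 genes, the log2 fold change and gene length had a Spearman rho of 0.60. This is a description across genes of the same 4 libraries, which are not independent, and genes on 1 messenger enter it separately. The part of length in the fold change was not tested.

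**Figure D3:**
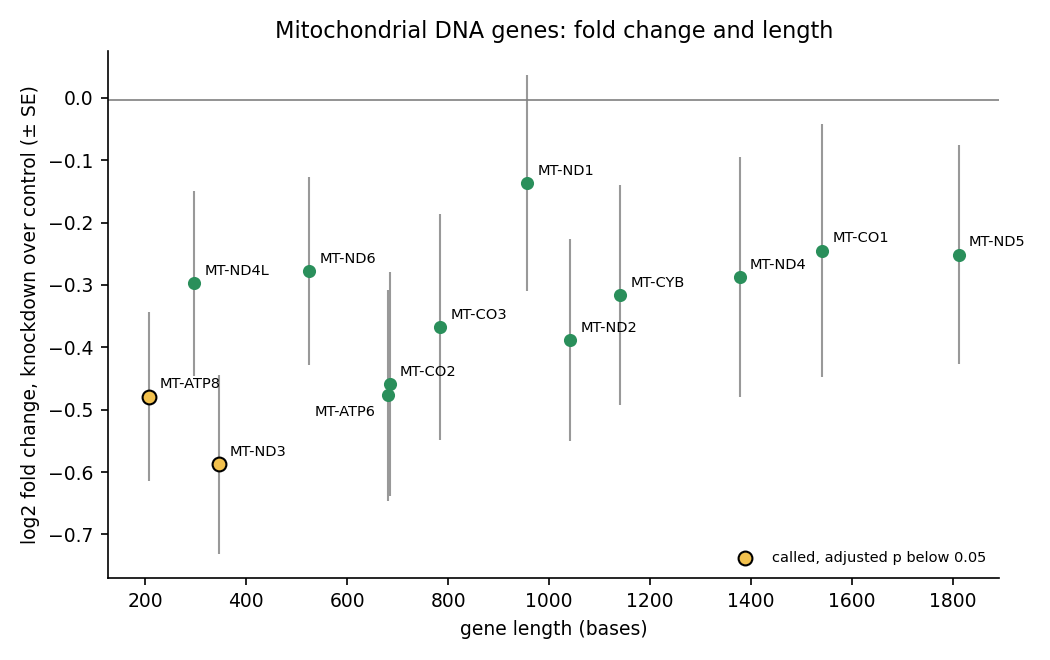
Log2 fold change (knockdown over control, with an SE derived from the edgeR test statistic) of the 13 mitochondrial DNA genes against gene length in bases. Circled yellow points passed the test. MT-ND3 (346 bases) and MT-ATP8 (207 bases) are the 2 called genes, and MT-ND1 (956 bases) lies nearest to 0.

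Nuclear DNA holds old copies of mitochondrial DNA, so the share of each gene's 65-base windows (the read length) with an exact second copy in the genome was counted. It was 0% for MT-ND3, MT-ATP8, MT-ND4L and MT-CYB, and highest for MT-CO1 (41.2%), MT-ND2 (38.1%) and MT-ATP6 (35.7%). Its Spearman rho with the log2 fold change was 0.26 across the 13 genes. On chromosome 1, MTATP6P1, a copy of MT-ATP6, was at 407.4 and 394.5 CPM in control and at 300.8 and 299.6 CPM in knockdown cells, with a log2 fold change of -0.42 (SE 0.13, adjusted p = 0.0718). MTND2P28 had a log2 fold change of -0.47 (SE 0.14, adjusted p = 0.0662) and MTCO1P12 of -0.18 (SE 0.14, adjusted p = 0.449). The other 2 copies, MTCO2P12 and MTCO3P12, lay below 1 CPM in every library, with log2 fold changes of -1.03 (SE 0.57) and 0.48 (SE 0.50). Thus 4 of the 5 copies fitted lower and 1 higher, and reads of either origin cannot be told apart where the sequences are identical. The mitochondrial ribosomal RNAs, which are not members, were also lower. MT-RNR1 had a log2 fold change of -0.41 (SE 0.15, adjusted p = 0.123) and MT-RNR2 of -0.40 (SE 0.16, adjusted p = 0.138), and neither passed the test. Together they took 0.200% and 0.185% of counts in control and 0.156% and 0.135% in knockdown cells.

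Nuclear members moved little, and none passed the test. Of the 78 tested, 59 fitted lower and 19 higher, with a median log2 fold change of -0.13 and a range from -0.42 to 1.00. By edgeR 0 of 78 were called and by DESeq2 also 0, and 4 had an unadjusted p below 0.05 in edgeR. Among all genes tested, edgeR called 10.8% and 26.3% had an unadjusted p below 0.05. DESeq2 called 5.31% of the 29440 genes with any counts. Both knockdown libraries lay below both controls in 16 of the 78 and above in 6, beside the 26.6% and 27.7% of all genes, and whether these shares differ was not tested. The 87 nuclear genes together took 0.581% and 0.672% of counts in control and 0.534% and 0.621% in knockdown cells. The means were 0.627% ± 0.064 and 0.578% ± 0.061 (SD, n = 2 each), and the groups overlapped. As a result, counts on the mitochondrial messengers per count on nuclear members were 9.39 and 8.15 in control and 8.25 and 7.02 in knockdown cells, with overlapping groups too. Between libraries of the same number, this ratio was lower in knockdown for both, at 8.25 against 9.39 and 7.02 against 8.15.

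The spread between replicates was wide for the nuclear members and had 1 direction. In 73 of the 78 tested genes (93.6%) replicate 2 lay above replicate 1 in both groups, whereas this held for 5 of the 13 mitochondrial DNA genes (38.5%) and for 37.1% of all genes tested. The median offset of replicate 2 over replicate 1 was 0.23 on the log2 scale in each group, larger than the median difference between the groups. What set the replicates apart was not tested. Between libraries of the same number, the nuclear share of counts was lower in knockdown for both, at 0.534% against 0.581% and 0.621% against 0.672%. The labels share only the number, so a pairing is not established. With 1 library left out, the offset no longer balances between the groups, and the nuclear median shifted. It was -0.25 without control replicate 1, -0.01 without control replicate 2, -0.02 without knockdown replicate 1 and -0.28 without knockdown replicate 2. The median of the mitochondrial DNA genes stayed between -0.34 and -0.30 in the same fits. Neither MT-ND3 nor MT-ATP8 passed the test in any fit with a library left out, with adjusted p between 0.0895 and 0.275 for MT-ND3 and between 0.199 and 0.307 for MT-ATP8, the remaining library of a group being assumed to vary like the others.

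**Figure D4:**
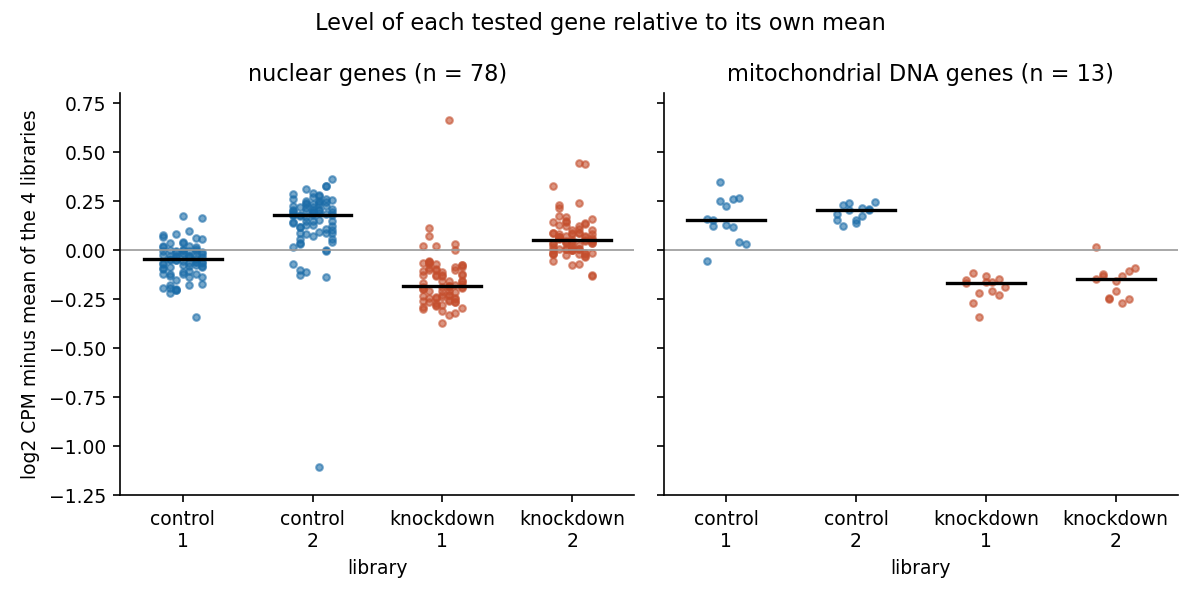
Level of each tested member in each library relative to its own mean over the 4 libraries (log2 CPM), for 78 nuclear genes (left) and 13 mitochondrial DNA genes (right), with the median as a bar. Nuclear genes shift between replicates by a median of 0.23 in both groups, whereas mitochondrial DNA genes separate by group.

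Complex I, the NADH dehydrogenase, has 37 nuclear members, of which 36 were tested. Of these, 23 fitted lower and 13 higher, with a median of -0.11. Its 7 nuclear core subunits, which bind NADH and pass on the electrons through iron-sulphur clusters, had a median of -0.16 with 6 of 7 lower. The 29 tested accessory subunits had a median of -0.04 with 17 lower and 12 higher. Of the lower core subunits, NDUFV2 rests on 11 to 16 counts per library (log2 fold change -0.20, SE 0.42), with 28.4% of its exon bases shared with other genes. The difference between core and accessory subunits was not tested. NDUFS7 (chr19:1383527-1395589, plus strand), a core subunit at the ubiquinone end, had the lowest fold change, at 8.68 and 8.82 CPM in control and 5.95 and 7.69 CPM in knockdown cells (log2 fold change -0.36, SE 0.18, adjusted p = 0.250). Another gene overlaps 51.4% of its exon bases, so its reads are uncertain. NDUFA13 (chr19:19515736-19529054, plus strand), an accessory subunit also known as GRIM-19, had the highest, with 27 and 12 counts in control and 38 and 31 in knockdown cells (log2 fold change 1.00, SE 0.39, adjusted p = 0.139). At about 1 CPM, and with 21.0% of its exon bases shared with other genes, its value rests on few and uncertain reads. NDUFA2 was at 11.8 and 13.6 CPM against 15.3 and 20.3 CPM (log2 fold change 0.49, SE 0.17, adjusted p = 0.106), and was named after its value was seen, as the nuclear member with the lowest adjusted p. Both of these accessory subunits lay higher in each knockdown library than in either control, unlike NDUFS7 and most of the other members that did not overlap.

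Complex II, the succinate dehydrogenase that is also an enzyme of the tricarboxylic acid cycle, was the complex without a mitochondrial DNA gene and the only one with a median above 0. Its 4 genes had a median of 0.04, from -0.25 for SDHC to 0.09 for SDHD, and all 4 overlapped between groups. SDHC (chr1:161314381-161363206, plus strand), a membrane anchor, was at 69.9 and 79.5 CPM in control and at 54.9 and 70.6 CPM in knockdown cells (SE 0.15, adjusted p = 0.309). SDHD (chr11:112086824-112120016, plus strand), the other anchor, was at 40.3 and 48.6 CPM against 41.0 and 54.0 CPM (SE 0.16, adjusted p = 0.756). Exact copies elsewhere in the genome cover 51.6% of the read-length windows of SDHC and 38.0% of those of SDHD.

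In complex III, which hands electrons to cytochrome c, 8 of 9 nuclear genes fitted lower, with a median of -0.19. UQCR11, a small subunit, had the lowest fold change of all nuclear members. It was at 15.1 and 18.6 CPM in control and at 11.8 and 13.3 CPM in knockdown cells (log2 fold change -0.42, SE 0.16, adjusted p = 0.126). UQCRC1 (chr3:48599002-48610976, minus strand), a core subunit facing the matrix, went the other way, at 148.6 and 158.4 CPM against 187.1 and 202.8 CPM (log2 fold change 0.34, SE 0.12, adjusted p = 0.111). Groups did not overlap for either gene, so that subunits of the same complex stood on opposite sides of 0, though neither passed the test.

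Complex IV, cytochrome c oxidase, had 11 of 12 tested nuclear genes lower, with a median of -0.12 and overlapping groups for all 12. NDUFA4 (chr7:10931943-10940153, minus strand), first assigned to complex I and now placed with complex IV, was at 98.2 and 121.4 CPM in control and at 83.5 and 100.6 CPM in knockdown cells (log2 fold change -0.25, SE 0.15, adjusted p = 0.306). COX5A (chr15:74919791-74938083, minus strand), which lies on the matrix side, was at 60.4 and 70.6 CPM against 66.5 and 80.1 CPM (log2 fold change 0.16, SE 0.14, adjusted p = 0.502). Of the 9 untested members, 8 were isoforms or gene copies known from particular tissues or from low oxygen, all too low to be tested. COX4I2, COX6A2, COX7B2 and COX8C had 0 counts in all libraries, COX6B2, COX7A1 and ATP5MGL at most 4, and NDUFA4L2 between 5 and 9. The ninth, NDUFA7, had between 7 and 12 counts, with 32.5% of its exon bases shared with another gene.

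Nuclear genes of ATP synthase were mostly lower. Of 17 tested genes 16 fitted lower, with a median of -0.19, and in 6 of them both knockdown libraries lay below both controls, beside 26.6% of all genes. The 18 genes together kept 87.5% of their control share of counts, against 94.7% for complex I, 98.2% for complex II, 98.3% for complex III and 93.9% for complex IV, and the 2 mitochondrial genes of the same complex kept 71.7%. ATP5PO (chr21:33903453-33915814, minus strand), which helps to join the catalytic head to the peripheral stalk, had the lowest fold change, at 25.1 and 27.8 CPM in control and 19.4 and 23.5 CPM in knockdown cells (log2 fold change -0.30, SE 0.14, adjusted p = 0.212). ATP5F1D (chr19:1241746-1244825, plus strand), the delta subunit of the central stalk, had the highest, at 51.0 and 61.2 CPM against 54.0 and 65.1 CPM (log2 fold change 0.09, SE 0.14, adjusted p = 0.753). The difference between nuclear and mitochondrial members of a complex was in the same direction in complexes I, III, IV and V, with mitochondrial medians of -0.29, -0.32, -0.37 and -0.48 beside nuclear medians of -0.11, -0.19, -0.12 and -0.19. That difference was not tested.

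**Figure D5:**
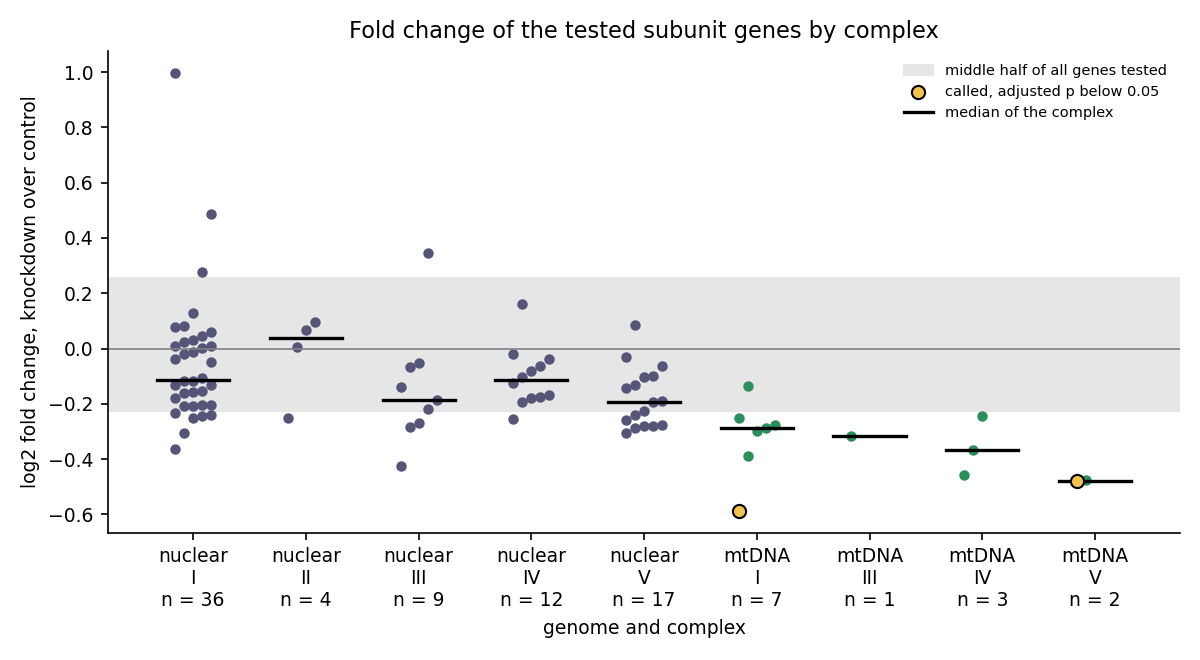
Log2 fold change (knockdown over control) of each tested subunit gene by genome and complex, with bars for medians and a grey band from the lower to the upper quartile of all genes tested (-0.22 to 0.26). Circled yellow points passed the test. Nuclear genes lie mostly within the band, with medians from -0.19 to 0.04, and the mitochondrial DNA genes lie mostly below it.

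Promoters and 3′ UTRs of the nuclear members were searched for short words. NRF1 and the ETS factor NRF2 (GABP) are known activators of respiratory genes, and their sites were searched in RefSeq promoters (GRCh38.p14, 250 bases before to 50 after the start) as GCATGCGC and CCGGAAG on both strands. A promoter was matched for 70 of the 87 nuclear members. The NRF1 word was found in 13 of these (18.6%), beside 3.05% of all 35116 promoters, and the ETS word in 20 (28.6%), beside 10.3%. The 35116 promoters were not filtered by expression or gene type, nor matched for base composition. Whether the gap is particular to respiratory genes was not tested. As examples, the promoter of COX6A1, a complex IV subunit (chr12:120437863-120438162, plus strand), holds 2 NRF1 words and 1 ETS word, and that of UQCR11 (chr19:1605413-1605712, minus strand) holds 2 ETS words, all in capitals. COX6A1 was at 31.2 and 35.4 CPM in control and at 27.0 and 31.7 CPM in knockdown cells. The 13 members with the NRF1 word had a median log2 fold change of -0.10, and the 51 tested members with a promoter without it -0.13, so the groups lay close together. A word match does not show that a factor binds there.
COX6A1: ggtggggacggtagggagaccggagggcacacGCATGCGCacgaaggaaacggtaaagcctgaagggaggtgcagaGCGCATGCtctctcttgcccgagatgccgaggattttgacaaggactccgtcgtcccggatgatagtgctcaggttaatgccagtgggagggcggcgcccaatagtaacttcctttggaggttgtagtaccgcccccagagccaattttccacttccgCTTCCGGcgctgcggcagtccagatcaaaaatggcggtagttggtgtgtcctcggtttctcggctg
UQCR11: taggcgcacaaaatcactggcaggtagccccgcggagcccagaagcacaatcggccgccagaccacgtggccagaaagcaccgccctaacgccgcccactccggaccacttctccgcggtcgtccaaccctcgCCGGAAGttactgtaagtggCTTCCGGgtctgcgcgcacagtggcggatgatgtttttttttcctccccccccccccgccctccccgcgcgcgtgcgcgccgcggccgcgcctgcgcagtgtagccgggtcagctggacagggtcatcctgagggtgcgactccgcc

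The 6-base word GCAACC was counted in the 3′ UTRs because earlier results of these same 4 libraries, not shown here, had singled it out. The counts are therefore a description and not an independent test of the word. GCAACC was present in 12 of the 87 nuclear members, of which 10 were tested. Their median was -0.22, and that of the 68 tested members without it -0.12. Of the 21 sites, 17 had the 7-base form GCAACCT. The form GCAACCA was present in 1 tested member, NDUFA2, whose log2 fold change was 0.49 and which was named after its value was seen. NDUFS1, a core subunit of complex I, held 4 sites, including 1 of the form GCAACCC, and had a log2 fold change of -0.25. A site of each of these genes, on chromosomes 5 and 2, is given as 30 bases of the 3′ UTR with the word in capitals.
NDUFA2: accccttactgtGCAACCactgaggcaaag
NDUFS1: gtatgaaataacGCAACCcagcagagttgt

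Genes that build, copy and regulate the system were read from lists. The apparatus of mitochondrial DNA copying, transcription and transcript stability had 3 of 34 tested genes called higher and 1 lower by edgeR, near the 6.66% and 4.18% of all genes, with a median of -0.05. DESeq2 called 2 higher and 1 lower, beside 5.31% of all its genes in both directions together. POLG, the catalytic subunit of the mitochondrial DNA polymerase, was at 44.2 and 39.8 CPM in control and at 71.4 and 68.4 CPM in knockdown cells, and rose by 0.73 (SE 0.12, adjusted p = 0.00517). TOP1MT, the mitochondrial type I topoisomerase, was at 10.3 and 11.5 CPM against 15.2 and 17.2 CPM and rose by 0.57 (SE 0.15, adjusted p = 0.0413). LONP1, a protease of the matrix, was at 93.1 and 88.7 CPM against 118.3 and 125.4 CPM and rose by 0.42 (SE 0.12, adjusted p = 0.0470). HSD17B10, a dehydrogenase that is also a part of mitochondrial RNase P, which cuts transfer RNAs from the long transcripts, was at 47.6 and 58.9 CPM against 28.5 and 34.6 CPM and fell by 0.75 (SE 0.15, adjusted p = 0.0124). Among those not called, the activator TFAM had a log2 fold change of 0.18 (adjusted p = 0.413), and the RNA polymerase POLRMT and the helicase TWNK both of -0.02. LRPPRC and SLIRP, which bind and stabilise mitochondrial messengers, had values of -0.01 and -0.02, so none of these 5 had a difference of more than 0.18.

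Among assembly factors edgeR called 1 gene each for complexes I and IV, shares at or below the 6.66% of all genes called higher. FOXRED1, which helps to assemble complex I, was at 29.6 and 23.6 CPM in control and at 47.9 and 41.9 CPM in knockdown cells and rose by 0.75 (SE 0.15, adjusted p = 0.0110), as 1 of 16 factors of that complex with a median of -0.06. SURF1, which acts in the assembly of complex IV, was at 9.35 and 9.34 CPM against 13.2 and 15.2 CPM and rose by 0.60 (SE 0.16, adjusted p = 0.0377), as 1 of 25 factors tested with a median of -0.10, and DESeq2 called 0 of these. Of the 13 factors of complexes II and III, edgeR and DESeq2 both called 0, and 2 had an unadjusted p below 0.05, with a median of -0.20. The 5 factors of complex V had 0 calls by either tool and 0 at an unadjusted p below 0.05, with a median of -0.11. The carriers outside the named families were likewise without a call by either tool or at an unadjusted p below 0.05: CYC1, the cytochrome c1 of complex III, had a log2 fold change of 0.18, CYCS, cytochrome c, of 0.03, and ATP5IF1, the inhibitor of ATP synthase, of -0.07.

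Nuclear regulators of respiratory genes had a median of 0.16 in 12 tested genes, with a range from -0.90 to 0.44. Here edgeR and DESeq2 called 0, and 2 had an unadjusted p below 0.05, 1 in each direction. PPARGC1A, a coactivator known to raise mitochondrial gene expression, had a log2 fold change of -0.23 (adjusted p = 0.492), and NRF1 of 0.25 (adjusted p = 0.301). In the tricarboxylic acid cycle 1 of 14 genes was called, near the 6.66% of all genes called higher. This was IDH2, the NADP-dependent isocitrate dehydrogenase, with mean levels of 28.1 ± 2.10 CPM (SD, n = 2) without and 45.4 ± 1.97 CPM (SD, n = 2) with knockdown, which rose by 0.69 (SE 0.12, adjusted p = 0.00773) while the list had a median of -0.07. Mitochondrial ribosomal proteins had 1 call in 78 genes, beside 6.66% of all genes called higher and 4.18% lower. This was MRPL45, a protein of the large subunit. It was at 14.1 and 17.1 CPM against 23.7 and 30.8 CPM and rose by 0.80 (SE 0.17, adjusted p = 0.0154), with 1 copy of GCAACC in its 3′ UTR. The other called genes of the lists held 0 copies. Copies were also present in genes not called, 3 in CYCS (log2 fold change 0.03) and 1 each in LRPPRC (-0.01), NRF1 (0.25) and TOP3A (0.34). The 78 genes had a median of -0.10, with 54 lower and 24 higher, close to the nuclear subunits.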

How the data were processed

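Transcripts were sequenced in 2 control and 2 TOP2B knockdown libraries. The authors checked reads with FastQC 0.11.6 and mapped them to GRCh38 with STAR 2.5.4a, counting reads per gene of Gencode v24 while mapping. The deposited values are raw counts. The table repeats its 4 columns with identical values, and these 4 copies were not used. Column names carry a stranded paired-end tag, whereas the methods give single-end reads of 65 bp. How strand was handled in counting is not given in the sources used here, so the share of exon bases overlapping another gene on either strand was computed.

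A gene entered the test when 2 or more libraries held 10 or more counts. The test was edgeR 4.0.16 (R 4.3.3; glmQLFit and glmQLFTest, TMM, with condition alone in the model), with Benjamini-Hochberg adjustment over 15356 genes and a threshold of 0.05. Each SE was derived from this test, as the size of the log2 fold change divided by the square root of the F statistic. With 20.2 to 23.9 reads per CPM, a gene at 1 CPM rests on about that many reads per library. The replicates are described as biologically independent, and p-values measure the spread between these libraries only. The fit was tested on simulated data. Symbols, positions, 3′ UTRs and read-length windows came from GENCODE v44 of GRCh38, where 98.9% of tested identifiers were found, and promoters from RefSeq.

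Members and lists were chosen with earlier results of these data known. Values are given for called members, the 13 mitochondrial DNA genes and called genes of the pathway lists. They are also given for the highest and lowest nuclear member of each complex averaging 1 CPM or more. Some other genes were picked by hand outside this rule. Among these were uncalled list genes such as TFAM, POLRMT, LRPPRC, PPARGC1A, NRF1, CYC1 and TOP3A, which do not stand for their lists. Alternatives were the size factors and the Wald test of DESeq2 1.42.0, no filter or a mean of at least 100 counts, library size alone, scaling without mitochondrial DNA genes, the replicate number as a term, and leaving out each library.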

Additional observations from a re-analysis of the deposited data

How the results depend on the processing

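The decrease of the mitochondrial messengers kept its direction under all alternatives: all 13 genes fitted lower in the main analysis and in each of the 11 alternatives, while the median of all genes stayed between -0.02 and 0.01. How many members passed the threshold depended on the settings, and the cause was not tested. Of the tested members 2 were called in the main analysis, where 10.8% of all genes were called. The DESeq2 Wald test called 6, beside 5.31% of all its genes, and 5 were called without a filter on counts, beside 7.96%. The number was 1 when a mean count of 100 was required, beside 11.7%, and 1 with scaling without mitochondrial DNA genes, beside 10.7%. MT-ATP8 was the gene lost in the latter pair, at adjusted p of 0.0502 and 0.0506, and MT-ND3 was called in both. With a library left out, 0 to 1 members were called. Nuclear members called were 0 in the main analysis, 1 without a filter (NDUFA13) and 0 to 1 with a library left out (NDUFA13 without control replicate 1, NDUFA2 without knockdown replicate 1). With the replicate number as a replicate block, 49 members were called, of which 36 were nuclear (31 lower and 5 higher) and 13 mitochondrial, all lower, but 44.2% of all genes were called in that fit. Deviations of same-numbered libraries had a correlation of 0.479, and the labels share only the number, so the block is not the main analysis. The difference in the share of mitochondrial messengers was -1.08 percentage points of all counts and -1.20 of counts on nuclear genes. The log2 fold change of SDHD ranged from -0.13 to 0.28 and that of ATP5F1D from -0.069 to 0.22 with a library left out, being negative without control replicate 1 (-0.034 and -0.040) and without knockdown replicate 2 (-0.13 and -0.069). Of 252 values of 23 named genes under the alternatives, 211 kept their direction and side of the threshold, 27 newly passed it, 10 no longer passed it and 4 changed sign. With 2 libraries per group, the fold change exceeded its standard error in 40 of 78 nuclear and 12 of 13 mitochondrial members.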

Other observations

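Of the transfer RNA genes of mitochondrial DNA, MT-TP (chrM:15956-16023, minus strand, GRCh38), which encodes the transfer RNA for proline, was the 1 with enough counts to be tested. It was at 50.2 and 45.0 CPM in the control libraries and at 25.7 and 26.7 CPM in the knockdown libraries. MT-TP fell by 0.86 on the log2 scale (SE 0.12, adjusted p = 0.00287, edgeR). Its counts were 1202 and 1026 against 545 and 538. The libraries were made from polyadenylated RNA, and which molecules these reads came from was not tested. On chromosome 1 the further copies MTCO2P12 and MTCO3P12 stayed below 1 CPM in every library, with 3 to 14 and 7 to 12 counts.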
